A study of Mus musculus with 8 samples.

Results

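The 44 genes described here mark the macrophages and monocytes of the lung, and Chil3, a chitinase-like protein that mouse alveolar macrophages secrete, is among them. They were taken as a fixed list of symbols: 10 of alveolar macrophages, 8 of interstitial macrophages, 16 shared by the lineage, 4 of monocytes and myeloid lectins, 3 of the colony-stimulating factor (CSF) axis and 3 of activation. Of the 44, 42 had at least 1 Affymetrix probe set annotated to them alone (70 probe sets in all), while Ear1 and Ear2, ribonucleases of the eosinophil family, had none. Of those 42, 36 lay above a limit on low values (a mean log2 intensity of 6.51), among 12856 genes above it of 18193 genes with a probe set of their own. Each gene is given by its brightest probe set, as log2 intensity. A difference is the mean of the cases minus the mean of the controls.

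The RNA came from whole lungs of 8 FVB/N mouse pups, 1 array per pup. All 8 carry the same genotype entry, an inducible FGF18 transgene aimed at the lung and built from SP-C-rtTA and (teto)7-FGF18. The SP-C promoter is active in the distal lung epithelium, so the activator is made there. The series text describes 4 pairs of singly and doubly transgenic pups, 1 pair from each of 4 litters, picked for induction of the transgene. Controls were pups D02, D40, D50 and D58, and cases were pups D04, D34, D48 and D52. The labels give neither the age of the pups nor the inducing agent, and they tie no pup to a litter.

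Before birth, macrophages seed the lung from fetal precursors. Around birth, fetal monocytes that reach the air spaces become alveolar macrophages under CSF2 (GM-CSF) from the epithelium, and these cells clear surfactant. Interstitial macrophages lie in the tissue around vessels and airways and depend more on CSF1 and its receptor CSF1R. In the mouse, Chil3 (also called Ym1) is abundant in alveolar macrophages and is taken as a sign of alternative activation. Its neighbour Chil4 (Ym2) is a close copy with expression in other tissues, so probes for one can bind the other.

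The upstream sequences of Chil3 and Chil4 are shown to describe these neighbouring copies. Each is the 250 bases before the gene's start on the minus strand, from RefSeq for GRCm38.p6, at chr3:106167565-106167814 for Chil3 and chr3:106219480-106219729 for Chil4. Capitals mark ACTTCCT, which is AGGAAGT on the other strand, a sequence that the myeloid factor PU.1 (gene Spi1) and other ETS factors bind.
Chil3: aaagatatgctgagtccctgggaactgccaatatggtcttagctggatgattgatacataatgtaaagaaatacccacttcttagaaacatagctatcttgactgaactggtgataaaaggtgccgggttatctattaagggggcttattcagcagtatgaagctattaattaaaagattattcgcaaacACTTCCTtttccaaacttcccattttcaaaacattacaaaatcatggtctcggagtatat
Chil4: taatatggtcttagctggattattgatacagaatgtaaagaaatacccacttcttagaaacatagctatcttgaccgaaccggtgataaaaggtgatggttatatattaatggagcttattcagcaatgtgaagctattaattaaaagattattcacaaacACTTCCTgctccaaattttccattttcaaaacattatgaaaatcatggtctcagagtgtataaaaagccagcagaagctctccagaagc

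Over 221 aligned bases the windows were 91.4% identical (202 bases). The windows lie before the transcripts that probe sets read, so this identity does not show how well probes separate Chil3 from Chil4. The AGGAAGT match begins 60 bases before the start of Chil3 and 89 bases before that of Chil4. It lies at the same place in the aligned letters. The Chil4 window runs on past where the Chil3 window ends, which makes up most of the larger distance. Searched on both strands, AGGAAGT was in 7.7% of 32851 upstream windows of the mouse. Among the 37 windows of the 34 member genes that have any, it was in 7. A STAT-type motif, TTC and GAA with any 4 bases between, was in 5.9% of all windows and 6 of the 37 member windows, and in neither Chil3 nor Chil4. A C/EBP-type motif, TTNNGCAA, was in 9.6% of all windows and 7 of the 37 member windows, with 1 match in Chil4 and none in Chil3. These matches are descriptions of letters, and the arrays do not measure binding.

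Fgf18 was read first as a check of the labels. It read 7.05, 7.76, 7.11 and 7.07 on the log2 scale in the controls (D02, D40, D50, D58), and 10.82, 12.09, 9.82 and 7.66 in the cases (D04, D34, D48, D52). The pups were picked for induction of the transgene, so the p that follows describes the labels and tests no effect. Cases D04, D34 and D48 stood at 11.9, 28.7 and 5.94 times the control mean, whereas D52 stood at 1.33 times and read below control D40 (difference 2.85, two-sided exact permutation p = 0.0571 over 70 arrangements, n = 4 and 4). The pup D52 is therefore called the library labelled Case D52, and results are given with and without it. For Abca3, the lipid transporter of type 2 cells and the only gene past the threshold over all 8 arrays, D52 went the way of its label: it was the lowest of the 8 at 10.27, against 11.34 to 11.56 in controls. Median log2 intensity ran from 7.06 to 7.12 over the control arrays and from 7.02 to 7.09 over the case arrays. Differences are given without correction for this offset unless median centring is named. With 4 arrays a group, precision is limited by their number. By Xist and Eif2s3y, 3 pups were female (control D02, cases D04 and D34) and 5 male. The label lung held for the type 2 cell genes, of which 6 of 6 with a probe set were above the limit.

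Several genes that define macrophages read above the limit in both groups, although this limit is not a detection call. Adgre1, Cd68, Csf1r, Mrc1 and Lyz2 were above it in every pup, and so was Marco by its brighter probe set. Below it in the mean were Fabp1, Cd163, Mgl2, Vsig4, Aif1 and Arg1. Across the 36 genes above the limit the picture was of Chil3 alone standing higher in the cases, and of small shifts elsewhere. In whole tissue, fewer cells of a type and less RNA per cell cannot be told apart.

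Of the 36 genes, 0 passed the threshold of 0.05 in the limma fit over 12856 genes (Benjamini-Hochberg adjusted p 0.736 to 0.997). Over all genes 0.0% were called higher and 0.00778% lower, the latter being Abca3 (difference -0.98, limma adjusted p = 0.0108). At an unadjusted p under 0.05, 1 member was higher (Chil3) and 4 were lower (Ctsk, Cd209f, Csf1 and Csf1r), against 2.08% and 4.22% of all genes. In 1 member every case lay above every control (Chil3, background 1.38%), and in 1 every case lay below (Cd209f, background 2.57%). The 4 lower members at an unadjusted p are a larger share of 36 than 4.22%, while each of the other counts is a single gene. The members were chosen with earlier results of these data known, so these shares are descriptions and were not tested. The median difference of the members was -0.03 beside -0.01 over all genes, with 16 members above 0 and 20 below (45.0% and 55.0% of all genes).

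Without the library labelled Case D52, 0 of 36 passed again, and the smallest adjusted p was 0.102 (Csf1, limma), where 0.0311% of all genes were called higher and 0.0156% lower. At an unadjusted p under 0.05, 1 member was higher and 6 were lower, against 4.57% and 8.13%. Chil3 was the 1 member with no overlap upward (background 5.72%), and 6 had none downward: Ctsk, Cd209f, Csf1r, Mrc1, Ccr2 and Csf1 (background 7.97%). Leaving out this library thus moved the count of lower members without overlap from 1 to 6 of 36. Over all genes the share moved from 2.57% to 7.97%. Then 13 members were above 0 and 23 below (45.1% and 54.9% of all genes), with a median of -0.08 beside -0.02.

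**Figure D1:**
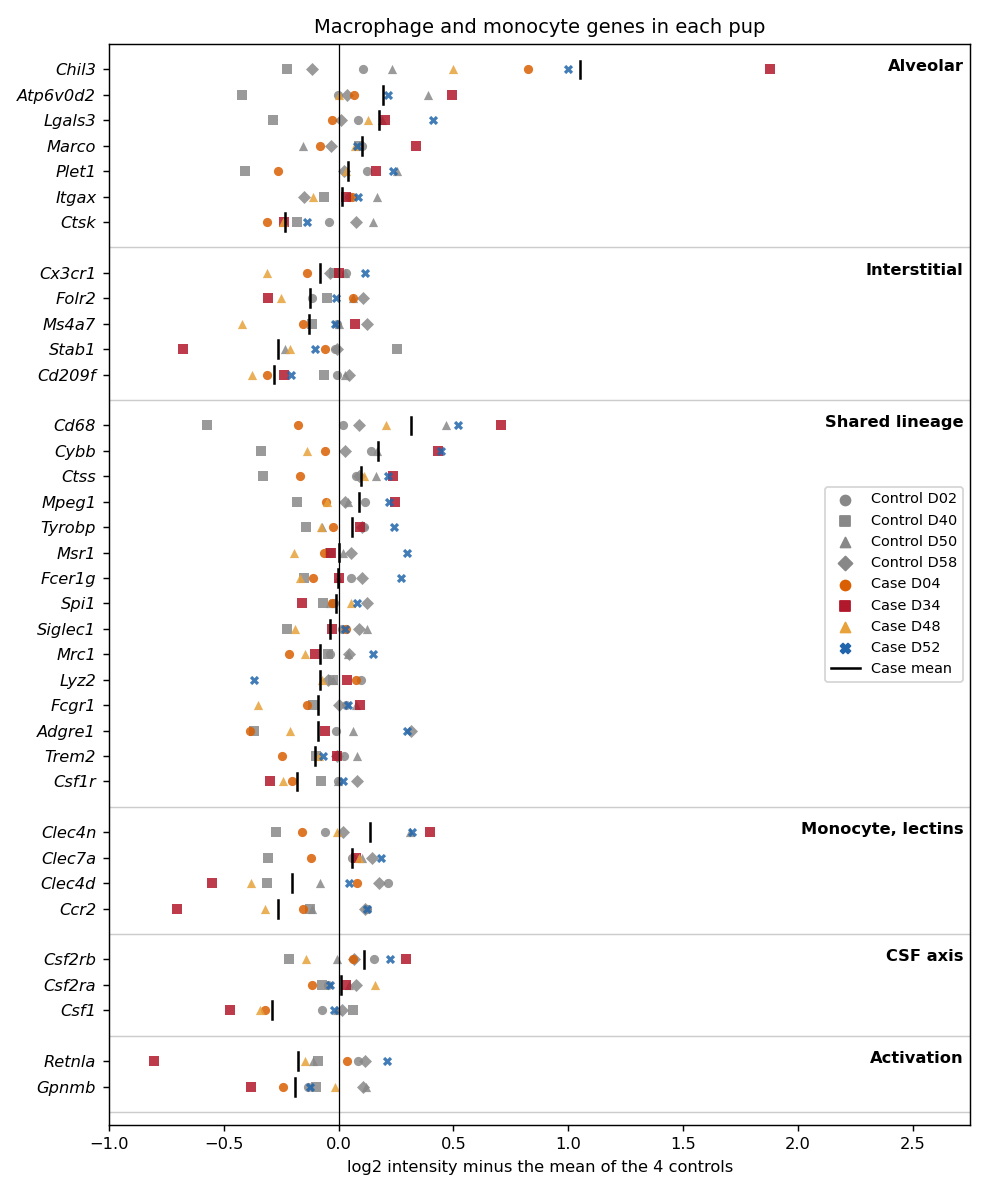
Log2 intensity of each of the 36 genes above the limit minus the mean of the 4 controls (horizontal axis), with 1 symbol per pup and a black bar at the mean of the 4 cases, genes grouped by role. Chil3 lies furthest to the right, with its case mean at 1.05, and every other case mean lies between -0.29 and 0.31.

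Among the alveolar macrophage genes, Chil3 was higher in all 4 case pups, including the library labelled Case D52. It read 7.34, 7.01, 7.46 and 7.12 in the controls (D02, D40, D50, D58), and 8.06, 9.11, 7.73 and 8.23 in the cases (D04, D34, D48, D52). The groups did not overlap, D34 was the highest of the 8 and D48 the lowest case. Control and case means were 7.23 ± 0.21 and 8.28 ± 0.59 (SD, n = 4 each), a difference of 1.05 or 2.07-fold (SE 0.25, 95% interval 0.49 to 1.61). The cases spread more widely than the controls: D34 was 3.67 times the control mean, D52 2.0 times, D04 1.77 times and D48 1.41 times. D04 and D52 differed by less than the control SD, so their order is not resolved.

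The difference in Chil3 did not pass across all genes (limma adjusted p = 0.736). A two-sided exact permutation test of this gene alone gave p = 0.0286, the smallest that 70 arrangements allow. Any gene without overlap of the groups gets this value (1.38% of all genes upward, 2.57% downward). It therefore adds nothing to the separation already seen. Of 12856 genes, 9 had a larger positive difference, 16 a larger one of either sign and 12 a smaller p. The next largest positive difference among the members was 0.31, for Cd68. Without the library labelled Case D52 the difference in Chil3 was 1.07 (limma adjusted p = 0.190; exact p = 0.0571, the smallest that 35 arrangements allow with both tails). D52, with Fgf18 at the control level, was above every control for Chil3, and its order against D04 is not resolved. Among male pups the difference in Chil3 was 0.78 (3 controls, 2 cases) and among female pups 1.25 (1 control, 2 cases). In the authors' deposited table, the log2 ratio of D04 to D02 was 0.72 for Chil3.

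A second probe set, which the annotation gives to both Chil3 and Chil4, ordered the pups much as the first did. It read 6.84, 6.49, 7.04 and 6.86 in the controls (D02, D40, D50, D58), and 7.40, 8.65, 7.10 and 7.74 in the cases (D04, D34, D48, D52). All 4 cases were above all 4 controls, although D48 cleared control D50 by little (difference 0.91 or 1.88-fold, exact permutation p = 0.0286, the smallest possible at n = 4 and 4). The probe set of Chil4 alone was below the limit on low values, at 4.69 to 4.80 in controls and 4.45 to 4.69 in cases. Its case mean was lower, not higher (difference -0.20, exact permutation p = 0.0571, n = 4 and 4). The shared probe set cannot tell how much of its signal is Chil3 and how much Chil4.

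**Figure D2:**
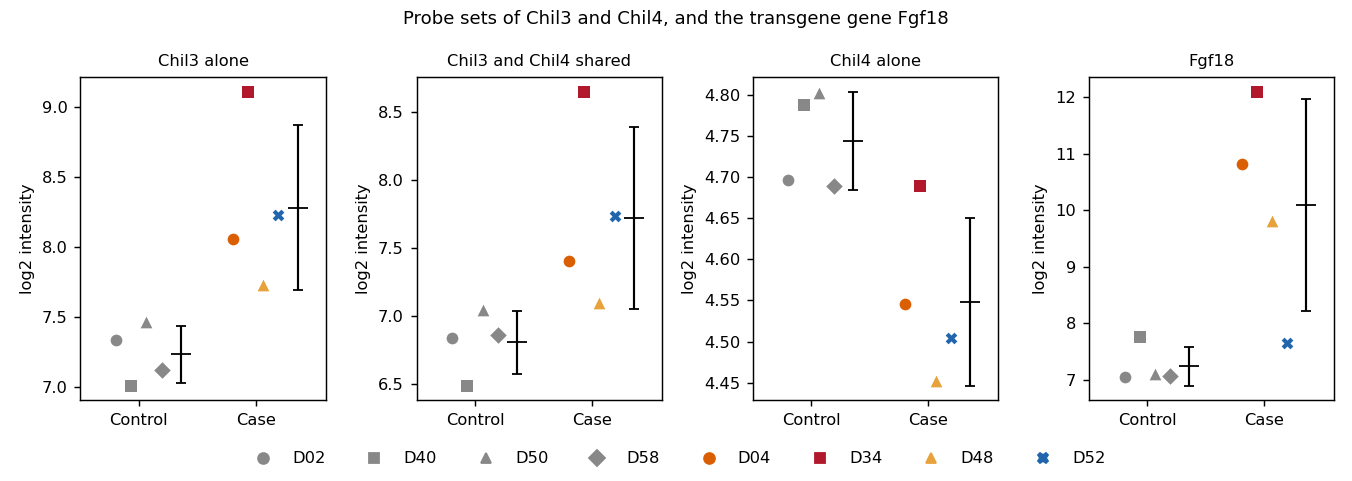
Log2 intensity (vertical axes, each with its own range) of the probe sets of Chil3, of Chil3 and Chil4 together, of Chil4 and of Fgf18, with 1 symbol per pup and the mean ± SD of each group (n = 4). Both Chil3 panels put every case above every control with D34 on top, and in the Fgf18 panel D52 at 7.66 sits among the controls.

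The other chitinase family genes did not follow Chil3. Of Chil1, Chia1 and Chit1, 0 of 3 passed the test in either direction and all 3 differences were below 0 (median -0.21, or -0.41 without the library labelled Case D52). Chia1, the acidic chitinase, had the smallest p of them. It read 10.79, 10.66, 10.96 and 10.95 in the controls (D02, D40, D50, D58), and 10.79, 10.13, 10.33 and 10.49 in the cases (D04, D34, D48, D52). Cases D34, D48 and D52 lay below every control and D04 did not (difference -0.40, limma adjusted p = 0.736).

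Marco, a scavenger receptor of alveolar macrophages, gave 2 answers from its 2 probe sets. The brighter one, which the rule for members takes, read 6.89, 6.88, 6.63 and 6.75 in the controls (D02, D40, D50, D58), and 6.71, 7.13, 6.86 and 6.87 in the cases (D04, D34, D48, D52). The groups overlapped, with D34 highest (difference 0.10, limma adjusted p = 0.802). The dimmer one was looked at after its values were seen, and its mean of 6.42 was just under the limit. It read 6.18, 5.57, 6.11 and 6.17 in the controls, and 6.62, 7.69, 6.60 and 6.46 in the cases. All 4 cases were above all 4 controls and D34 was again the highest, as for Chil3.

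That difference was 0.84 or 1.79-fold, and 0.97 without the library labelled Case D52. In a fit over all 45037 probe sets, where 0.0% were called higher and 0.00444% lower, it did not pass (limma adjusted p = 0.635). The exact permutation test of it alone gave p = 0.0286 (n = 4 and 4). Every probe set without overlap of the groups gives this value, so it adds nothing to the separation already seen. Among the 70 probe sets of the members, 2 had every case above every control, those of Chil3 and this one of Marco, and 1 had every case below, that of Cd209f. The shares over all probe sets were 1.17% and 3.13%. Leaving out each pup in turn kept the difference of the dimmer probe set between 0.55 and 0.97.

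**Figure D3:**
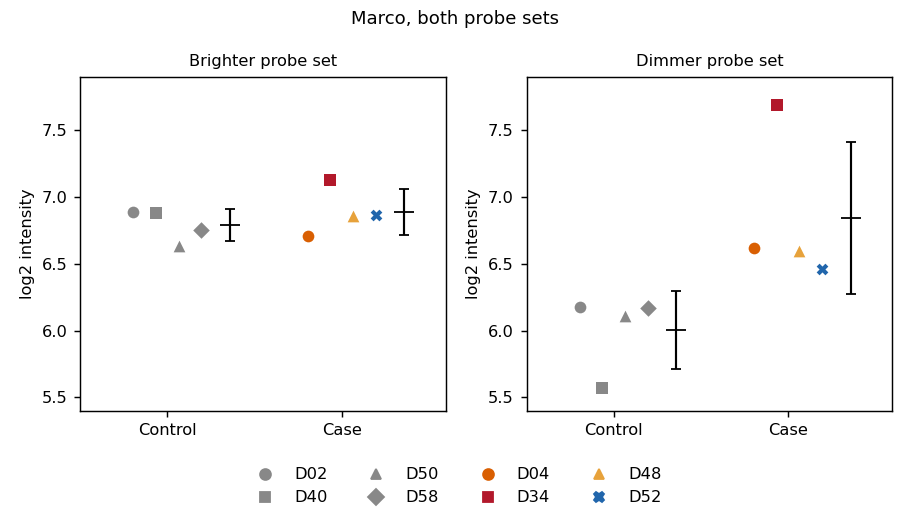
Log2 intensity (vertical axes on the same range) of both probe sets of Marco, with 1 symbol per pup and the mean ± SD of each group (n = 4). The groups overlap in the brighter probe set, while in the dimmer one the cases, from 6.46 to 7.69, all lie above the controls.

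Of the 7 alveolar genes above the limit, 6 had a difference above 0 with a median of 0.10, but with arrays weighted by quality 4 of these lay on the other side of 0 (Marco -0.01, Plet1 -0.29, Atp6v0d2 -0.02 and Lgals3 -0.04). Leaving out single pups moved the median between 0.02 (without D34) and 0.16 (without D04). Atp6v0d2, a subunit of the proton pump of acid compartments, differed by 0.20, and Lgals3, the lectin galectin-3, by 0.18. Plet1, a surface protein of alveolar macrophages that the epithelium can also make, differed by 0.04, and Itgax, the integrin CD11c, by 0.01. The adjusted p of these 4 lay between 0.740 and 0.969 (limma). Control D40 was the lowest pup for Chil3, Plet1, Atp6v0d2 and Lgals3. With the limit on low values in mind, Fabp1, a fatty acid-binding protein also made by liver and gut, ran from 3.42 to 6.94 in controls and from 4.96 to 8.15 in cases, a spread that covers any difference.

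Ctsk, the protease cathepsin K, was the 1 alveolar gene below 0. It read 7.91, 7.77, 8.10 and 8.03 in the controls (D02, D40, D50, D58), and 7.64, 7.72, 7.71 and 7.82 in the cases (D04, D34, D48, D52). All cases were below the control mean, and D52 alone lay above the lowest control, D40 (difference -0.23, limma adjusted p = 0.736). Without D52 it was -0.26 (limma adjusted p = 0.273). Osteoclasts and fibroblasts also express Ctsk.

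The interstitial macrophage genes leaned the other way from Chil3. All 5 above the limit had a difference below 0, as did 55.0% of all genes. The median of the 5 was -0.13, and -0.17 without the library labelled Case D52. Intensities were not rescaled. Under median centring the 5 stayed below 0, at -0.23 for Cd209f, -0.21 for Stab1, -0.08 for Folr2 and Ms4a7, and -0.03 for Cx3cr1. With arrays weighted by quality Folr2 turned to 0.02. Relative to the control mean, the median over the 5 genes was -0.14, -0.24, -0.31 and -0.01 in the cases (D04, D34, D48, D52), and between -0.05 and 0.05 in the controls. The median of D52 was within the range of the controls, although 4 of its 5 genes were below the control mean, and none of the 5 genes passed on its own. Leaving out single pups moved the median between -0.19 and -0.09.

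Cd209f, a C-type lectin related to human DC-SIGN, was lower in every case. It read 7.11, 7.06, 7.15 and 7.17 in the controls (D02, D40, D50, D58), and 6.81, 6.88, 6.75 and 6.91 in the cases (D04, D34, D48, D52). The groups did not overlap, and D52 was the case nearest to the controls. Means were 7.12 ± 0.05 and 6.84 ± 0.08 (SD, n = 4 each), a difference of -0.28 or 1.22-fold (SE 0.06, 95% interval -0.42 to -0.14). It did not pass over all genes (limma adjusted p = 0.736), except with arrays weighted by quality (adjusted p = 0.0308, limma with array weights). The exact permutation test of this gene alone gave p = 0.0286, the smallest that 70 arrangements allow. Every gene without overlap of the groups gives this value, so it adds nothing to the separation by which Cd209f was picked out.

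The other interstitial genes had smaller or more scattered differences. Stab1, the scavenger receptor stabilin-1 that endothelium also carries, differed by -0.26, and D34 was its lowest pup at 8.54. Without D34 the difference of Stab1 was -0.13. Ms4a7 and Folr2, a membrane protein and the folate receptor of tissue macrophages, each differed by -0.13. Cx3cr1, the fractalkine receptor, differed by -0.08. The adjusted p of these 4 lay between 0.736 and 0.817 (limma). Cd163, the haemoglobin scavenger receptor, was below the limit, at 5.31, 4.91, 5.06 and 5.31 in the controls (D02, D40, D50, D58), and 5.51, 5.21, 5.04 and 5.23 in the cases (D04, D34, D48, D52). Its groups overlapped (difference 0.10). Mgl2 and Vsig4, below the limit too, differed by -0.20 and -0.17.

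The genes shared by the lineage showed no common shift. Of 15 above the limit, 6 were above 0 and 9 below, with a median of -0.01, or -0.06 without the library labelled Case D52, and the median turned to 0.02 under quantile normalization. In D52 itself 13 of the 15 were above the control mean, against 2 in D04, 8 in D34 and 3 in D48. Control D40 had 0 of 15 above it, so the pups differed among themselves within each group.

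Adgre1, a surface antigen widely used to mark mouse macrophages, read 7.98, 7.62, 8.06 and 8.31 in the controls (D02, D40, D50, D58), and 7.61, 7.93, 7.78 and 8.29 in the cases (D04, D34, D48, D52) (difference -0.09, limma adjusted p = 0.896). Its groups overlapped over nearly their whole range. Cd68, a lysosomal membrane protein, read 7.52, 6.93, 7.97 and 7.59 in the controls, and 7.32, 8.21, 7.71 and 8.02 in the cases. D34 and D52 were above every control, and the control SD of 0.43 exceeded the difference of 0.31 (limma adjusted p = 0.763). Lyz2, lysozyme, which type 2 cells make as well, read 13.41, 13.28, 13.28 and 13.26 in the controls and 13.39, 13.34, 13.24 and 12.94 in the cases. D52 was the lowest, and without it the difference went from -0.08 to 0.01.

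Csf1r, the receptor for CSF1 that sustains most macrophages, was lower in the 3 cases with high Fgf18. It read 10.60, 10.52, 10.59 and 10.68 in the controls (D02, D40, D50, D58), and 10.39, 10.30, 10.36 and 10.62 in the cases (D04, D34, D48, D52). The first 3 cases were below every control and D52 was within their range. The difference was -0.18 (limma adjusted p = 0.736), and -0.25 without D52 (adjusted p = 0.196, limma). Its other probe sets differed by -0.17 and -0.14. Under median centring the difference of Csf1r with D52 was -0.13.

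Mrc1, the mannose receptor CD206, was similar in order. It read 9.59, 9.58, 9.67 and 9.68 in the controls (D02, D40, D50, D58), and 9.42, 9.53, 9.49 and 9.78 in the cases (D04, D34, D48, D52). D04, D34 and D48 were below every control, and D52 was above every control. The difference was therefore -0.08 with D52 and -0.16 without it (limma adjusted p = 0.812 and 0.386). Under median centring the difference of Mrc1 with D52 was -0.03.

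Differences of the remaining shared genes ran from -0.10 for Trem2, a lipid-sensing receptor, to 0.17 for Cybb, the catalytic chain of the phagocyte oxidase. Between them lay Ctss (the protease cathepsin S) at 0.10, Mpeg1 (the pore-forming perforin-2) at 0.09, Tyrobp (the adaptor DAP12) at 0.06 and Fcgr1 (the high-affinity IgG receptor) at -0.09. Msr1 (a scavenger receptor), Fcer1g (an Fc receptor chain), Spi1 (the factor PU.1) and Siglec1 (the sialic acid receptor CD169) were each within 0.04 of 0. The adjusted p of these 10 lay between 0.751 and 0.997 (limma). Aif1 (the actin-binding protein IBA1), below the limit, differed by -0.16.

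In the monocyte and lectin group, Ccr2, the chemokine receptor that brings monocytes out of the marrow, was lowest in D34. It read 8.54, 8.30, 8.30 and 8.53 in the controls (D02, D40, D50, D58), and 8.26, 7.71, 8.10 and 8.55 in the cases (D04, D34, D48, D52). D04, D34 and D48 were below every control, D04 narrowly so, and D52 was level with the highest controls. The difference was -0.26 with D52 and -0.39 without it (limma adjusted p = 0.736 and 0.273), and -0.12 without D34. All 4 Ccr2 probe sets had a negative difference, from -0.26 to -0.09. The fungal receptors Clec7a (dectin-1), Clec4n (dectin-2) and Clec4d differed by 0.06, 0.14 and -0.20, with adjusted p between 0.779 and 0.896 (limma).

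Csf1, the growth factor itself, was lower in the 3 cases with high Fgf18, by its brightest probe set. It read 8.69, 8.83, 8.75 and 8.78 in the controls (D02, D40, D50, D58), and 8.44, 8.29, 8.42 and 8.74 in the cases (D04, D34, D48, D52). D04, D34 and D48 were below every control, and D52 was within the control range. The difference was -0.29 (SE 0.09, limma adjusted p = 0.736), and -0.38 without D52 (limma adjusted p = 0.102). The probe sets of Csf1 did not give 1 answer, since the other 3 differed by -0.23, 0.01 and -0.04. The GM-CSF receptor chains Csf2ra and Csf2rb differed by 0.01 and 0.11 (limma adjusted p = 0.978 and 0.809).

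Of the activation genes, Retnla, the resistin-like protein made by alternatively activated macrophages and by airway epithelium, differed by -0.18. Its lowest pup was D34 at 8.17, the pup with the highest Chil3, and without D34 the difference was 0.03. Gpnmb, a glycoprotein of lipid-laden macrophages, differed by -0.19. Arg1, arginase-1, was below the limit at 6.15 to 6.48 in controls and 6.08 to 6.20 in cases.

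**Figure D4:**
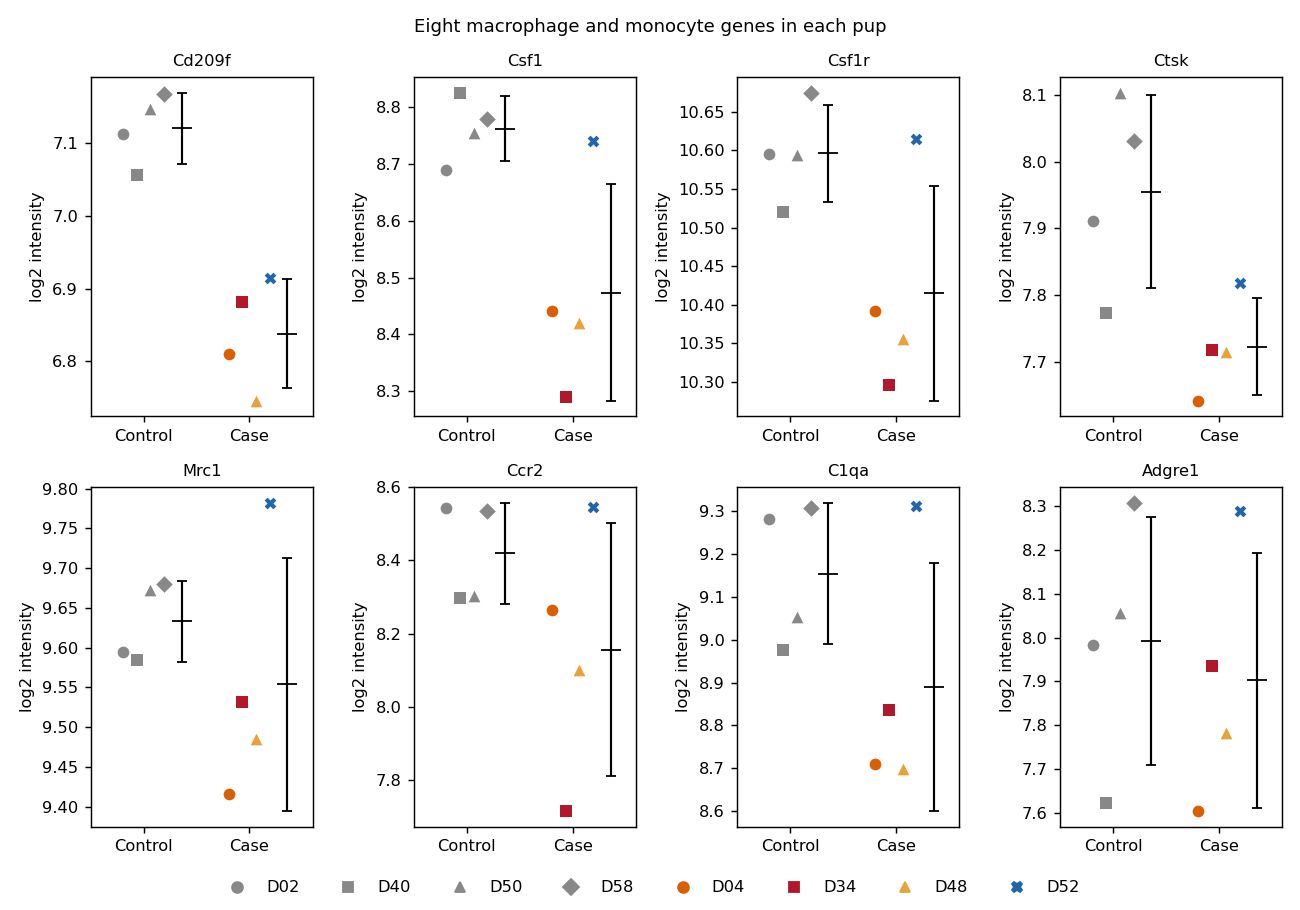
Log2 intensity (vertical axes, each with its own range) of Cd209f, Csf1, Csf1r, Ctsk, Mrc1, Ccr2, C1qa and Adgre1, with 1 symbol per pup and the mean ± SD of each group (n = 4). The first 6 genes were picked as the members (6 of 36) without overlap downward once D52 was left out. C1qa was added after its values were seen. In these 7 genes the cases D04, D34 and D48 thus lie below all controls, as in 7.97% of all genes. D52 joins them only in Cd209f, and Adgre1 overlaps.

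**Figure D5:**
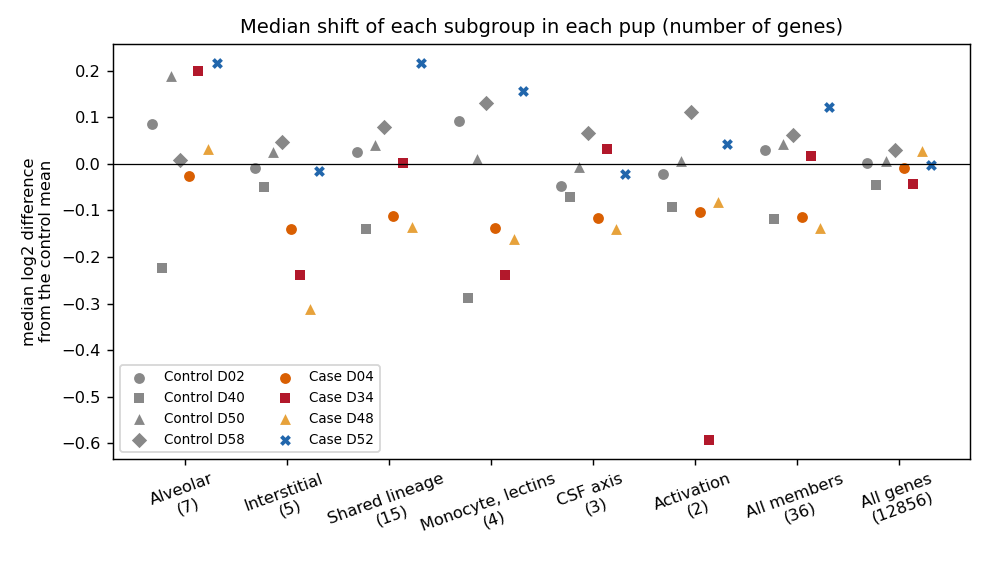
Median log2 difference from the control mean over the genes of each subgroup, over all 36 members and over all 12856 genes (horizontal axis, number of genes in brackets), with 1 symbol per pup. In the interstitial group cases D04, D34 and D48 lie between -0.31 and -0.14 with D52 at -0.01, and control D40 is the lowest control in every column, all 12856 genes included.

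Genes around this list differed in both directions, with none past the threshold. Of 17 genes of macrophage growth and fate above the limit, 0 passed, with a median of -0.02. Csf2, the gene of GM-CSF, was lower in every case at 6.57 to 6.86 against 6.91 to 7.11 in controls (difference -0.29, limma adjusted p = 0.736). It was the 1 gene of the 17 without overlap of the groups, and 2.57% of all genes had every case below every control. Its lowest case, D48 at 6.57, was close to the limit of 6.51. The transcription factors Irf8 and Cebpb differed by 0.24 and 0.30 (limma adjusted p = 0.736 for each). Pparg, the nuclear receptor of alveolar macrophage identity, was looked at after its values were seen and lay below the limit. It read 6.01 to 6.25 in controls and 6.64, 6.70, 6.83 and 6.16 in the cases (D04, D34, D48, D52), so D04, D34 and D48 were above every control and D52 was not.

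Of 28 other macrophage genes above the limit, 0 passed, with a median of -0.09, or -0.15 without the library labelled Case D52. Of the 28, 9 were above 0 and 19 below. Cd36, a fatty acid and scavenger receptor that endothelium also carries, read 11.50 to 11.57 in controls and 12.04, 12.51, 12.00 and 11.51 in the cases (D04, D34, D48, D52). D52 was within the control range (difference 0.47, limma adjusted p = 0.736). C1qc, a chain of the complement recognition protein C1q made by tissue macrophages, differed by -0.29, and Slc11a1, a metal transporter of phagosomes, by -0.28. The other C1q chains, named after their values were seen, went the same way: C1qa by -0.27 and C1qb by -0.29. Cyba and Ly86, also named after their values were seen, went the other way, by 0.19 and 0.25. Their unadjusted p was smaller than that of C1qa and C1qb over all 8 arrays (limma). Without D52 the 3 chains differed by -0.41, -0.42 and -0.40 for C1qa, C1qb and C1qc, and 7 of the 28 genes had every remaining case below every control (7.97% of all genes) and 1, Cd36, had every remaining case above (5.72%).

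Markers of other cells differed between the pups too, and their part in the results above was not tested. Summed intensity of 9 heart and skeletal muscle genes, as log2, was 13.99 to 14.44 in controls and 12.21 to 14.37 in cases. Their median difference was -0.66, -1.52, -0.45 and 0.23 in D04, D34, D48 and D52, so the pup with the highest Chil3 had the least muscle signal and D52 was near the controls. Of these genes 8 of 9 were below 0, among them Tnnt2 (-0.85), Acta1 (-0.50) and Atp2a1 (-0.25). Without the library labelled Case D52 all 9 were below 0 (median -0.83). Of the 9, 7 then had every remaining case below every control, against 7.97% of all genes. The 4 erythroid genes were all below 0, with sums of 11.71 to 12.33 in controls and 11.34 to 11.73 in cases (Slc4a1 -0.66, Alas2 -0.34).

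Of 9 neutrophil genes, 7 were below 0 and 2 above, with sums of 12.44 to 12.84 in controls and 12.44 to 12.92 in cases, and Lcn2, which epithelium also makes, differed by 0.35. Of 2 lymphocyte genes above the limit, Cd3e differed by -0.27 and Cd79b, chosen after its value was seen, by 0.20. The 4 mast cell, eosinophil and dendritic cell genes above the limit were all below 0 (median -0.15), with Itgae at -0.17 and Flt3 at -0.13. Of the genes in these lists, 0 passed the test.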

How the data were processed

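Biotin-labelled lung RNA of 8 pups was put on Affymetrix arrays, 1 array a pup, per the labels' protocols. The authors' deposited tables hold probe set intensity on a linear scale for 45101 probe sets; both tables held the same values (largest difference 0.0). The submitters' processing notes name the affy package; how probes were summarised and arrays normalized is not stated there. The authors also deposited log2 ratios, which equalled D04 over D02 in 45101 rows within 1e-06.

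Intensities were taken to log2 without further scaling. Of the probe sets, 64 were Affymetrix controls and left out, 34945 had 1 gene symbol, 932 several and 9160 none. The limit on low values was the 40th percentile of mean log2 intensity (6.51), and the brightest probe set above it stood for a gene. The comparison used limma 3.58.1 (lmFit, eBayes; R 4.3.3), tested on simulated data, and p-values were adjusted by Benjamini-Hochberg over 12856 genes. Probe sets above the limit differed in sign for Csf1, Csf2rb, Cybb, Msr1 and Plet1, of 9 members with several. Single genes also had two-sided exact permutation tests.

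All 44 members are accounted for. Every pup's value is given for Chil3, Adgre1, Cd68, Csf1r, Marco, Mrc1, Cd163 and Lyz2, for members with an unadjusted p under 0.05 and for members without overlap of the groups. From each other list up to 4 genes with an unadjusted p under 0.05 are named, or the 2 with the smallest p. Members and lists were chosen with earlier results of these data known. Upstream windows were matched by gene symbol to RefSeq for 34 members. Alternatives changed the filter, scaling, choice of probe set, moderation, array weights, covariates and litter pairing, and left out each pup.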

Additional observations from a re-analysis of the deposited data

Results flagged for a closer look

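Of 86 sets of 4 pups examined (each member and Fgf18, in controls and in cases), 2 held a pup far from the other 3, where chance gives about 1 in 20. Lyz2 read 13.41 in control D02, while the other 3 controls lay between 13.26 and 13.28. Fgf18 read 7.76 in control D40, while the other controls lay between 7.05 and 7.11; D40 was also the lowest pup for Chil3, at 7.01.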

How the results depend on the processing

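The count of members past the threshold stayed at 0 with every filter, scaling, choice of probe set, moderation and covariate tried, at a threshold of 0.1, in all 24 ways of pairing the pups as litters and without each pup (0 to 0), and was 1 with array weights (Cd209f, -0.31, adjusted p = 0.0308, where 16 genes passed in all). Which pups shared a litter is not given, so the litter was tried as a block in every possible pairing: under the 24 pairings the adjusted p of Chil3 ran from 0.478 to 0.926, and from 0.552 to 0.793 in the 6 that keep D02 with D04. The difference in Chil3 was 1.05, and 0.79 with array weights (limma adjusted p = 0.0517). It was 0.77 to 1.23 without single pups, lowest without D34. The exact permutation test gave p = 0.0286 for Chil3, as for any gene without overlap of the groups. Without single pups the median of the alveolar genes ran from 0.0219 (without D34) to 0.1622 (without D04), the median of the interstitial genes ran from -0.19 (without D04) to -0.0852 (without D48), and that of the activation genes from -0.26 to -0.0469 (without D34). Of 589 values of members under alternatives, 537 kept direction and side of the threshold and 50 changed sign, in 21 of 36 members. With array weights the sign changed for Marco (-0.0135), Plet1 (-0.2861), Atp6v0d2 (-0.0229), Lgals3 (-0.0395), Folr2 (0.0183), Cd68 (-0.1933), Mpeg1 (-0.0611), Msr1 (-0.0299), Cybb (-0.0811), Ctss (-0.1745), Tyrobp (-0.0182), Clec7a (-0.1350), Clec4n (-0.1470) and Csf2ra (-0.0949); these weights were lowest for D34 (0.261) and D40 (0.347), and the cause was not tested. The mean of probe sets turned Plet1 (-0.0057) and Msr1 (-0.0615), sex as a covariate Itgax (-0.0005), Fcer1g (0.0054) and Spi1 (0.0133), quantile normalization Siglec1 (0.0224) and Spi1 (0.0175), and median centring Siglec1 (0.0114), Fcer1g (0.0480) and Spi1 (0.0370). Without single pups the differences ran from -0.2179 to 0.0159 for Adgre1, -0.0444 to 0.1165 for Clec7a, -0.0416 to 0.0505 for Csf2ra, -0.0117 to 0.1864 for Ctss, -0.0931 to 0.0539 for Fcer1g, -0.0354 to 0.07 for Itgax, -0.134 to 0.0139 for Lyz2, -0.0959 to 0.0668 for Msr1, -0.0931 to 0.144 for Plet1, -0.3048 to 0.0342 for Retnla, -0.114 to 0.0118 for Siglec1, -0.0447 to 0.0361 for Spi1 and -0.0019 to 0.104 for Tyrobp.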
